A study of Homo sapiens with 12 samples.

Results

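The genes described here encode nuclear subunits of respiratory complexes II, III and IV and of ATP synthase. They were chosen by symbol: SDHA to SDHD, all symbols that begin with UQCR, CYC1, symbols that begin with COX4 to COX8, and symbols that begin with ATP5, where both value tables held a probe. This gave 43 genes of the 16251 measured in both tables: 3 of complex II, 8 of complex III, 16 of complex IV and 16 of ATP synthase, its inhibitor included. The one measured value in the choice was the mean signal, since a gene with several probes was represented by its brightest. Another 3 matching symbols were in 1 table only and are not counted, and SDHB was not analysed here. Because the group was taken up with earlier results of these arrays known, its counts in VCaP cells are a description of those arrays, and the tests quoted were run over all genes of a table.

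Total RNA of 2 human prostate cell lines was hybridised to 1-colour Illumina bead arrays, and all levels below are normalised log2 signals. VCaP (VCAP in the labels) is a prostate cancer line that carries the TMPRSS2-ERG fusion, through which the transcription factor ERG is expressed. It was grown in RPMI medium, received a lentiviral ERG shRNA or a scramble shRNA, and was selected with puromycin, with 2 arrays for each. RWPE1 is a line of prostate epithelium that was immortalised and is not cancerous, grown in KSFM medium. It was transfected with GFP-ERG, ERG joined to the green fluorescent protein, as the name gives, or with GFP alone, and RNA was taken at 48 h or 72 h, with 2 arrays for each of the 4 groups. The labels do not say how many ERG shRNA sequences were used. They give duplicate transfections and do not say further what separates the arrays of a pair, so p-values measure the spread between arrays, which may be partly technical. The arrays hold RNA of whole cultures, in which fewer cells of a type and less RNA per cell cannot be told apart.

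The ERG signal did not follow the label in VCaP cells. The brightest of 3 ERG probes read 8.71 and 8.77 on the arrays labelled ERG shRNA, against 8.35 and 8.33 on the scramble arrays, and the other probes lay within 0.1 of the scramble level. The arrays are therefore named by their labels, and every VCaP direction below rests on them. In RWPE1 cells one ERG probe read 7.33 and 7.29 with GFP-ERG against 6.30 and 6.43 with GFP at 48 h, and 6.93 and 6.94 with GFP-ERG against 6.36 and 6.25 with GFP at 72 h. The other ERG probe was at 6.83 to 7.0 on all 8 arrays. Of the marker lists, KLK2 (13.16), TMPRSS2 (12.37) and HOXB13 (10.24) were bright in VCaP cells, and the basal keratins KRT5 (13.63) and KRT14 (14.20) in RWPE1 cells. Some markers went the other way by percentile among genes. Luminal KRT8 (79.0 in VCaP, 90.4 in RWPE1) and KRT18 (66.2 and 81.1) ranked higher in RWPE1 cells, and basal ITGA6 (66.2 and 36.4) in VCaP cells. The other luminal and basal markers measured in both lines ranked with the label, though KLK3 read 8.67 in VCaP and KRT15 7.3 in RWPE1 cells. None of 21 measured fibroblast, endothelial and leukocyte markers passed the test between the VCaP groups, and their highest level there was 8.64, for a gene of the leukocyte list. The median probe read 7.75 in VCaP arrays and 7.24 in RWPE1 arrays, close to the bottom of either scale.

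Respiration passes electrons from fuels to oxygen across the inner mitochondrial membrane. Complex II oxidises succinate within the citrate cycle, complex III hands electrons to cytochrome c, and complex IV, cytochrome c oxidase, reduces oxygen. Complexes III and IV pump protons, and ATP synthase lets them return through a ring of c subunits that drives ATP formation in its catalytic head. Complex II is built from nuclear genes only, while the catalytic cores of complex IV, cytochrome b of complex III and some membrane subunits of ATP synthase are made inside mitochondria. No mitochondrially encoded subunit had a probe in these tables (0 of 13). Normal luminal prostate cells accumulate zinc, which inhibits aconitase and limits the citrate cycle, and prostate cancer cells commonly lose that restraint.

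Promoter sequences are shown for 4 members around which the results turn: the member with the largest fall in VCaP cells in complex III, complex IV and ATP synthase, and SDHA, which moved against most members over time in RWPE1 cells. The windows come from RefSeq (GRCh38.p14), run from 250 bases before to 50 bases after the transcription start on the + strand, and are written 5′ to 3′. Capitals mark CCGGAA, the core that ETS factors such as ERG and GABPA bind, on either strand. UQCRQ lies at chr5:132866392-132866691, COX6A1 at chr12:120437863-120438162, ATP5MC1 at chr17:48892537-48892836 and SDHA at chr5:218070-218369.
UQCRQ: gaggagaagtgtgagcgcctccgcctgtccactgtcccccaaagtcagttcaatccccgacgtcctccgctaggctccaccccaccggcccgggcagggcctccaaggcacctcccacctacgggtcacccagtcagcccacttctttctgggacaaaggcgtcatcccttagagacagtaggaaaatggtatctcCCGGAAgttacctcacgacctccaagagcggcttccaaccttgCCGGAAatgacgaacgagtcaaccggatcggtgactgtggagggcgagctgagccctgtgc
COX6A1: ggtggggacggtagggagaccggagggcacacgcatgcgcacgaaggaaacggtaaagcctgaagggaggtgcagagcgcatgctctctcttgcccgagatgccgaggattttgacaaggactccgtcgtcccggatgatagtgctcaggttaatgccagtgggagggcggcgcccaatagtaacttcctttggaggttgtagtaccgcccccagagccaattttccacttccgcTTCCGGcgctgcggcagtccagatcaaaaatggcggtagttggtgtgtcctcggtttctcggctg
ATP5MC1: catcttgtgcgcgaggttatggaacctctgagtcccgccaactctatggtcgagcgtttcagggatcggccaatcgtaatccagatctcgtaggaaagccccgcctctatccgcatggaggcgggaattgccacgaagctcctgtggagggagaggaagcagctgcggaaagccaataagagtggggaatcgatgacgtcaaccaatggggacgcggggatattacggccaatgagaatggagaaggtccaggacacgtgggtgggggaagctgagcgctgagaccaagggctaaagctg
SDHA: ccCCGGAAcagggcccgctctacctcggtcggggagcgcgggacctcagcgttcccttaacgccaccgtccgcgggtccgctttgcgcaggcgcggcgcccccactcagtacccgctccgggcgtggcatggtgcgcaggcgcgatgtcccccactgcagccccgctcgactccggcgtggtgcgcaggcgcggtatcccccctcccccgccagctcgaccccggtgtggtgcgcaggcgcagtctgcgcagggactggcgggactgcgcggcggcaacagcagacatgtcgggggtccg
UQCRQ held the core 2 times, with first bases at -54 and -11 from the start. COX6A1 held it once at -15, on the other strand, and SDHA once at -248, while ATP5MC1 held none.

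Of the 43 members, 34 had a promoter window in the table, 39 windows in all. CCGGAA was in 22 of the 39 windows (56.4%), against 17.2% of all 35116 windows. By gene it was in 21 of 34 members, in 7 of the 9 with a window that passed the test as lower in VCaP cells and in 14 of the other 25. The longer form CCGGAAGT, which contains it, was in 25.6% of member windows against 4.14% of all. By gene this form was in 2 of those 9 and in 8 of the other 25. The motif of NRF1, a regulator of respiratory genes, was in 25.6% against 5.78%. By gene it was in 0 of the 9 members that passed as lower and in 10 of the other 25. AAGATGGC, a YY1 motif, was in 12.8% against 2.89%, CCAAT in 43.6% against 34.6% and TATAAA in 10.3% against 11.5%. In the 9 and the other 25, AAGATGGC was in 0 and 4, CCAAT in 5 and 11, and TATAAA in 0 and 4. Whether the 9 differ from the other 25 in any motif was not tested. All were searched on both strands. The median GC content was 58.7% in member windows and 58.7% in all, and a match is only a match of letters.

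On the VCaP arrays labelled ERG shRNA, complex IV and many ATP synthase subunits were about a log2 unit lower than on the scramble arrays, whereas complex II and, by the brightest probe, 5 of 8 complex III members lay within 0.4 of them. In all, 11 of 43 members passed the test as lower and 0 as higher, 25.6% of members. Of all 16922 genes 3.49% passed, 1.81% as lower and 1.68% as higher (limma with Benjamini-Hochberg adjustment over all genes, threshold 0.05). The count was 0 without scramble array 1 and 0 without scramble array 2, 17 with dim genes left out and 23 with a trended, robust variance. The median change was -0.81 over the members and 0.00 over all genes, on the log2 scale. At an unadjusted p under 0.05 in limma were 25 members, against 21.6% of all genes. At or below -1 were 20 members, against 1.71% of all genes, and 9 of these 20 did not pass the test. Both arrays labelled ERG shRNA lay below both scramble arrays for 28 members and above both for 2 (23.9% and 28.9% of all genes). By complex, 0 of 3, 1 of 8, 7 of 16 and 3 of 16 members passed as lower in complexes II, III and IV and ATP synthase, with medians of -0.14, -0.29, -1.13 and -1.08.

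**Figure D1:**
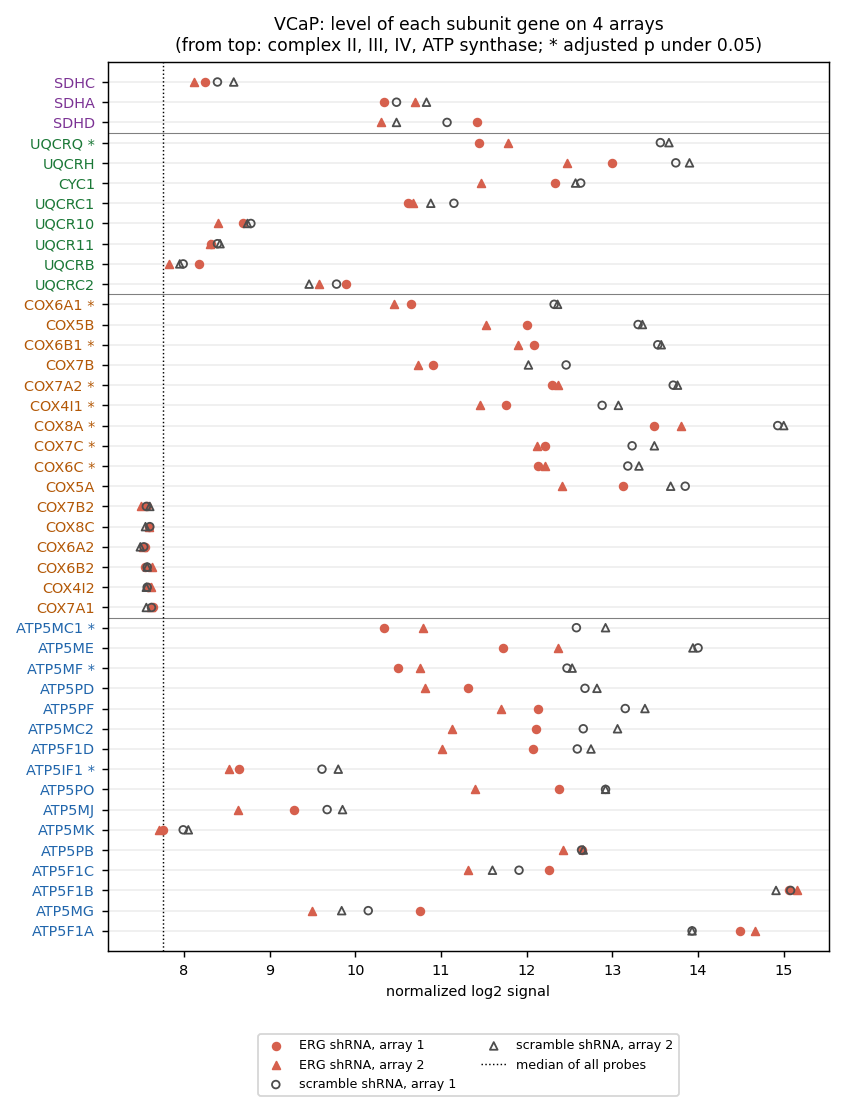
Level of each of the 43 subunit genes on the 4 VCaP arrays, on an axis of normalised log2 signal, with filled symbols for the 2 arrays labelled ERG shRNA, open symbols for the 2 scramble arrays and a dotted line at the median of all probes, 7.75. The 10 bright complex IV subunits sit to the left of their scramble values, and the 6 genes just left of the dotted line are the complex IV isoforms of other tissues.

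The differences were alike across the brighter subunits of complex IV. Its 10 subunits brighter than the median probe were all lower on both arrays labelled ERG shRNA, between -1.79 and -1.0 with a median of -1.38, and 7 of them passed. COX6A1, a subunit beside the catalytic core, read 10.65 and 10.45 on the arrays labelled ERG shRNA, against 12.32 and 12.36 on the scramble arrays, which is 3.46-fold lower (log2 fold change -1.79 ± 0.09, SE; limma adjusted p = 0.0268). COX6B1, which faces the intermembrane space and joins the monomers of the dimer, read 12.09 and 11.90 on the arrays labelled ERG shRNA against 13.53 and 13.57 with scramble (2.94-fold lower, limma adjusted p = 0.0287). COX7A2 read 12.30 and 12.37 against 13.71 and 13.76 (2.63-fold lower, limma adjusted p = 0.0231), the lowest adjusted p among the members. For each of these genes the groups lay more than 1 log2 unit apart, and the arrays of a pair within about 0.2.

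COX4I1, the subunit at which ATP inhibits the enzyme, read 11.76 and 11.45 on the arrays labelled ERG shRNA, against 12.88 and 13.07 on the scramble arrays (2.58-fold lower, limma adjusted p = 0.0472). COX8A, a small membrane subunit, read 13.48 and 13.80 on the arrays labelled ERG shRNA against 14.93 and 15 with scramble (2.50-fold lower, limma adjusted p = 0.0448). The small membrane subunits COX7C (log2 fold change -1.19) and COX6C (-1.08) also passed. COX5B (-1.57), COX7B (-1.42) and COX5A (-1.0) did not, though both arrays labelled ERG shRNA lay below both scramble arrays for each. COX5B binds zinc on the matrix side.

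The remaining 6 complex IV members are the isoforms of other tissues: COX6A2 and COX7A1 of heart and skeletal muscle, COX4I2 of lung, and COX6B2, COX7B2 and COX8C of testis. They stayed below the median probe in every group of both lines, at 7.49 to 7.64 in VCaP and 6.33 to 6.86 in RWPE1. Their VCaP differences ran from -0.05 to 0.04. COX8C read 7.59 and 7.59 on the arrays labelled ERG shRNA against 7.60 and 7.55 on the scramble arrays, and COX6A2 read 7.54 and 7.52 on the arrays labelled ERG shRNA against 7.53 and 7.49 with scramble. At this level, near the floor of the scale, a fall could not have been seen. Of the other 37 members some were dim as well. With scramble means of 8.02 (ATP5MK) and 7.97 (UQCRB) over a lowest VCaP value of 7.44, a large fall could not have been seen in them.

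ATP synthase subunits differed among themselves. ATP5MC1, one of the genes for the c subunit of the rotating ring, had the largest fall among all members: 10.33 and 10.79 on the arrays labelled ERG shRNA, against 12.58 and 12.92 on the scramble arrays (4.57-fold lower, log2 fold change -2.19 ± 0.22, SE; limma adjusted p = 0.0468). ATP5MF, subunit f of the membrane part, read 10.50 and 10.76 against 12.47 and 12.53 (3.66-fold lower, limma adjusted p = 0.0293). ATP5IF1, the protein that blocks the enzyme when it would run backwards and hydrolyse ATP, read 8.64 and 8.52 against 9.61 and 9.80 (2.18-fold lower, limma adjusted p = 0.0352). Further membrane and stalk subunits were at or below -1 and did not pass: subunit e (ATP5ME, -1.93), d (ATP5PD, -1.69), F6 (ATP5PF, -1.36), the second c subunit gene (ATP5MC2, -1.24), and OSCP (ATP5PO, -1.04), which ties the stalk to the head. The head's delta subunit (ATP5F1D, -1.13) did not pass either. Adjusted p-values of the 9 such members of all complexes ran from 0.053 to 0.265 (limma, Benjamini-Hochberg).

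The large subunits of the catalytic head were not lower. ATP5F1B, the catalytic beta subunit, read 15.06 and 15.15 on the arrays labelled ERG shRNA against 15.08 and 14.91 with scramble, close to the top of the scale. ATP5F1C, the central gamma subunit, read 12.26 and 11.31 on the arrays labelled ERG shRNA against 11.91 and 11.60 with scramble. ATP5F1A, the alpha subunit, had a log2 fold change of 0.64 ± 0.07 (SE), with both arrays labelled ERG shRNA above both scramble arrays, and it missed the threshold (limma adjusted p = 0.051). Subunit b of the stalk, ATP5PB, differed by -0.12. ATP5MK, of the dimer interface, differed by -0.29, at 7.76 and 7.71 on the arrays labelled ERG shRNA against 7.99 and 8.05 with scramble. Its groups did not overlap, and so near the floor a fold may be compressed. Subunit g of the membrane part, ATP5MG, read 10.76 and 9.49 on the arrays labelled ERG shRNA against 10.15 and 9.84 with scramble, a difference of 0.13 with overlapping groups. The values thus do not divide by part of the enzyme, and no difference between parts was tested.

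In complex III, UQCRQ, a small subunit next to cytochrome b, read 11.44 and 11.78 on the arrays labelled ERG shRNA, against 13.56 and 13.66 on the scramble arrays (4.0-fold lower, log2 fold change -2.00 ± 0.14, SE; limma adjusted p = 0.0323). UQCRH, the hinge protein that aids the docking of cytochrome c, was at -1.08, and CYC1, the cytochrome c1 that carries the haem, at -0.70, and neither passed. The core proteins UQCRC1 and UQCRC2 were at -0.37 and 0.12. UQCRB, which lies at the quinone site, read 8.18 and 7.82 on the arrays labelled ERG shRNA against 7.99 and 7.95 with scramble, and UQCR11, a small subunit, 8.31 and 8.30 on the arrays labelled ERG shRNA against 8.39 and 8.42 with scramble. These last 2, with UQCR10 (-0.22), lay within about 1 log2 unit of the median probe, where a fold may be compressed. UQCR10 had 3 probes of similar brightness. The second gave -0.27, while the third read 8.04 and 8.05 on the arrays labelled ERG shRNA, against 9.03 and 9.16 on the scramble arrays, a difference of -1.05 with no overlap, so its value depends on the probe taken.

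Complex II showed no call. SDHA, the flavoprotein that oxidises succinate, read 10.33 and 10.70 on the arrays labelled ERG shRNA against 10.48 and 10.83 with scramble. SDHD, a membrane anchor, read 11.42 and 10.30 on the arrays labelled ERG shRNA against 11.07 and 10.48 with scramble, so its arrays disagreed within both groups. SDHC, the other anchor, differed by -0.30. SDHC, at 8.12 to 8.58, was also within about 1 log2 unit of the median probe, so its fold may be compressed.

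**Figure D2:**
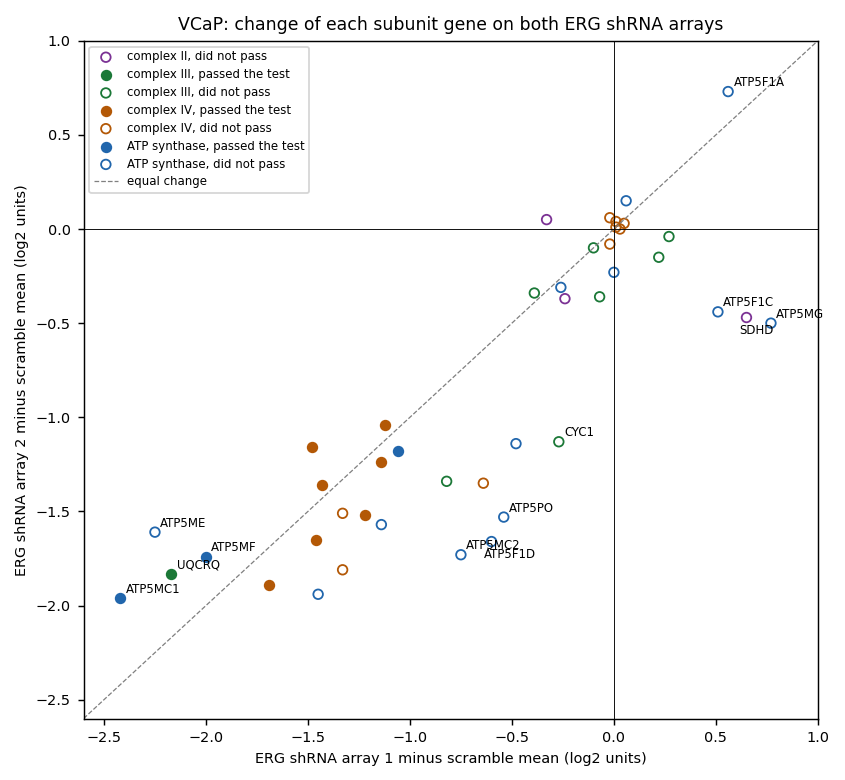
Change of each of the 43 subunit genes on array 1 (x axis) and array 2 (y axis) labelled ERG shRNA, each as the log2 difference from the mean of the 2 scramble arrays, coloured by complex and filled where the limma test passed. The filled points lie near the dashed line of equal change, and most open points that are low lie below it, where array 2 is the lower.

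The arrays of the ERG shRNA pair differed in size more than the scramble arrays did. Against the scramble mean, 16 members were at or below -1 on array 1 and 23 on array 2, and 16 on both. The median change was -0.48 on array 1 and -1.13 on array 2. The pair labelled ERG shRNA was 0.5 or more apart for 11 members, array 2 being lower in 10 of them, and the scramble pair for 1. ATP5F1C, ATP5MG and SDHD lay above the scramble mean by 0.5 or more on array 1 and below it by 0.44 or more on array 2. Over all genes 115 differed more than 2-fold within the ERG shRNA pair and 4 within the scramble pair. Without array 1 labelled ERG shRNA 24 members passed (23 lower) and without array 2 17 (16 lower), and without either scramble array none of the 43 did. In such a fit the lone array is assumed to vary like the pair of the other group, which alone gives the spread. The counts were higher where the closer scramble pair gave it, and the cause was not tested.

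Where a member had further probes, they mostly had the same sign. Of 14 further VCaP probes, 13 had the sign of the brightest, and 8 were within 0.25 of its change. A second ATP5MF probe gave -1.88, and second probes of ATP5ME and ATP5PD gave -2.08 and -1.52. The ATP5MC1 probes gave -2.19 and -1.36. ATP5IF1 rested on its brightest probe alone, the other being at -0.02, and the further ATP5MC2 probes gave -0.36 and 0.02. RefSeq lists pseudogenes named after 29 of the 43 members, and the signal of a probe may include their transcripts.

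Among the members, the change in VCaP cells varied with the length of the gene. Taken here were the 37 members brighter than the median probe in either VCaP group. ATP5MK entered through the scramble group only (mean 8.02, against 7.73 on the arrays labelled ERG shRNA). The 11 whose RefSeq gene span is under 5000 bp had a median change of -1.32, and 9 of them were at or below -1. The 10 of 5000 to 10000 bp had a median of -0.55 with 4 at or below -1, and the 16 of 10000 bp or more had -0.68 with 7. Spearman's rho between span and change was 0.51, and between scramble level and change -0.42 (n = 37 genes, all from the same 4 arrays). The change is itself a difference from the scramble level, which by construction tends to make the second rho negative. ATP5MC1 (3085 bp), UQCRQ (2206 bp) and ATP5ME (1841 bp) were among the short, and ATP5F1A (23980 bp), UQCRC2 (30300 bp) and SDHA (50427 bp) among the long. Genes are not independent replicates, and the parts of span, level and function in the result were not tested. Span was not set against change over all genes, so whether the trend is particular to these members is not known.

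**Figure D3:**
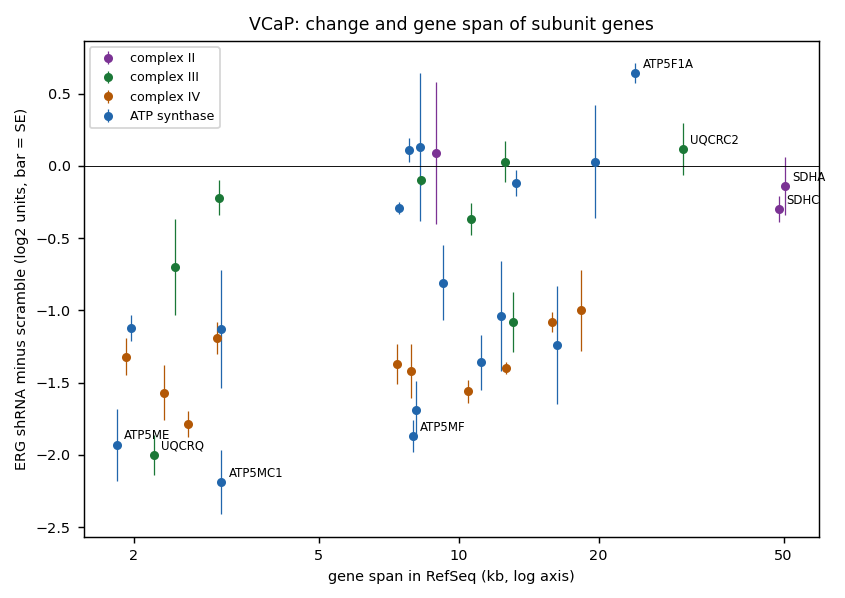
Log2 change on the arrays labelled ERG shRNA against scramble (bars, SE) by RefSeq gene span in kb on a log axis. Shown are the 37 subunit genes brighter than the median probe in either VCaP group. The genes under 5 kb lie at -0.22 and below, and the points above 0 lie to their right.

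Genes that build or serve the complexes were counted from lists of known factors. Of all genes 1.81% were called lower in VCaP cells and 1.68% higher. For assembly of complex IV, 4 of 23 measured genes were lower and 0 higher in VCaP cells: COX17, the chaperone that brings copper (log2 fold change -2.07, limma adjusted p = 0.0489), COX14 (-1.23), COA1 (-0.76) and CMC1 (-0.72). UQCC2, needed for the making of cytochrome b, was lower (-1.61, limma adjusted p = 0.0342), as 1 of 4 complex III assembly genes. In protein import, 3 of 17 were lower (PAM16 -1.41, TIMM10 -1.19, TIMM8B -0.62) and the outer membrane receptor TOMM70 was higher (0.85). None passed of 14 citrate cycle genes (citrate synthase CS 0.61, DLAT 0.51), of 9 electron carrier and ADP/ATP exchange genes (SLC25A4 -0.53, VDAC1 0.45), of 12 regulators of mitochondrial biogenesis (ESRRA -0.36, YY1 0.35), of 6 ATP synthase assembly genes (ATPAF1 0.31, DMAC2L -0.20) or of 3 complex II assembly genes (SDHAF1 -0.57, SDHAF3 -0.39).

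Other mitochondrial groups give a scale, beside 1.81% of all genes called lower in VCaP cells. Of 32 complex I subunits, 15 passed as lower in VCaP cells and 0 as higher, with a median of -1.08. Of 74 mitochondrial ribosomal proteins, 10 passed as lower and 0 as higher, with a median of -0.49. The 43 members, at 11 and -0.81, lay between them. They include the 6 dim isoforms, and the 37 members brighter than the median probe had a median of -1.08. No such cut was made in the other groups, and whether the 3 groups differ was not tested. Among the luminal markers, KLK3 was lower on the arrays labelled ERG shRNA (-0.69, limma adjusted p = 0.0448), 1 of 7 measured. The largest change in that list was upward, in FOLH1 (1.20), and did not pass (limma adjusted p = 0.0582). The median change of the list was -0.02, with 3 genes above 0 and 4 below.

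In RWPE1 cells few of these genes passed the test between GFP-ERG and GFP. At 48 h 1 of 43 members passed the test (2.33%), as lower, while 8.79% of all 16591 genes did, 3.93% as lower. The member was SDHC, a membrane anchor of complex II, which read 9.73 and 9.84 with GFP-ERG against 10.29 and 10.22 with GFP (1.38-fold lower, log2 fold change -0.47 ± 0.08, SE; limma adjusted p = 0.000324). At 72 h it read 10.11 and 10.36 with GFP-ERG against 10.25 and 10.39 with GFP, and the groups overlapped. The change of its GFP-ERG effect between times was 0.38 ± 0.11 (SE) and did not pass (limma adjusted p = 0.18). SDHA, in the same complex, was at 0.23 at 48 h and 0.20 at 72 h, and SDHD at -0.05 and -0.23, with no call. At an unadjusted p under 0.05 in limma were 7 members at 48 h, and 19.6% of all genes. With background subtracted none of the 43 passed at 48 h, and without array 2 of GFP-ERG at 48 h 4 did, SDHC among them.

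At 72 h 0 of 43 members passed, against 6.2% of all genes, with 4 members at an unadjusted p under 0.05 in limma, the only tool run (17.8% of all genes). Differences ran from -0.47 to 0.23 at 48 h and from -0.23 to 0.20 at 72 h, with medians of -0.01 and 0.02. Arrays of the GFP-ERG and GFP groups did not overlap in 10 members upward and 10 downward at 48 h, close to the 23.8% and 23.2% of all genes, and in 15 and 6 at 72 h (24.0% and 23.8%). The change of the ERG effect with time, which is also the difference between the time shifts of GFP-ERG and GFP cells, passed for 0 of 43, against 0.476% of all genes, with 4 at an unadjusted p under 0.05 in limma (9.57% of all genes). The 11 genes that were lower in VCaP cells had differences of -0.17 to 0.09 with GFP-ERG at 48 h.

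More members differed between the times than between GFP-ERG and GFP. In GFP-ERG cells 22 members were higher and 2 lower at 72 h than at 48 h (55.8% of members called, against 25.8% of all genes; 13.1% of all genes were called higher and 12.6% lower). In GFP cells 20 were higher and 2 lower (51.2%, against 23.0% of all genes; 11.8% called higher and 11.2% lower). The median change was 0.18 and 0.17 log2 units, against 0.00 and 0.01 over all genes. Of the members called higher, 16 were so in both, out of 22 with GFP-ERG and 20 with GFP. The shifts were at most 0.70 log2 units. With background subtracted, 10 members passed with GFP-ERG and 9 with GFP. Leaving out 1 array lowered the count to 13 with GFP-ERG (without array 1 at 72 h; 15 without array 2) and to 8 with GFP (without array 1 at 48 h; 13 without array 2, and 12 without array 1 at 72 h).

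**Figure D4:**
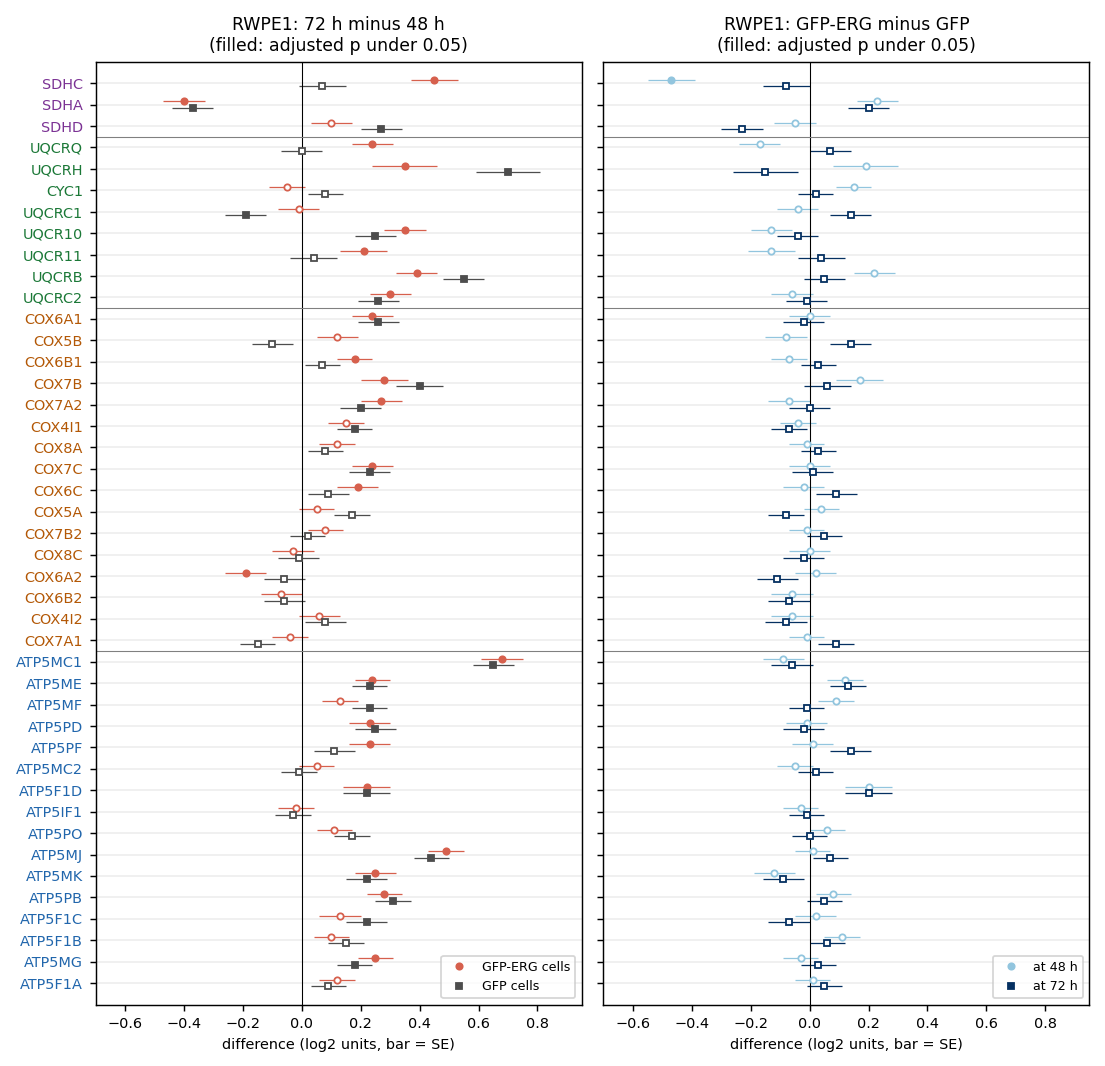
Log2 difference of each subunit gene in RWPE1 cells (bars, SE; symbols filled where the limma adjusted p was under 0.05), for 72 h against 48 h in GFP-ERG and GFP cells at left and GFP-ERG against GFP at each time at right. At left most points lie right of 0 and SDHA left of it, while at right the one filled point is SDHC at 48 h.

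In ATP synthase 9 of 16 members were higher at 72 h with GFP-ERG and 10 of 16 with GFP, and none lower. ATP5MC1 led: it read 12.28 and 12.24 at 72 h against 11.53 and 11.64 at 48 h in GFP-ERG cells (1.60-fold higher, limma adjusted p = 1.37e-07), and 12.30 and 12.35 at 72 h against 11.62 and 11.72 at 48 h in GFP cells (1.57-fold higher, limma adjusted p = 2.74e-07). ATP5MJ, a small membrane subunit, read 9.96 and 10 at 72 h against 9.49 and 9.48 at 48 h in GFP-ERG cells and 9.95 and 9.88 at 72 h against 9.46 and 9.49 at 48 h in GFP cells. Both genes differed by nearly the same amount in GFP-ERG and GFP cells, with no overlap between times. ATP5PB, subunit b of the stalk, read 12.08 and 12.05 at 72 h against 11.77 and 11.80 at 48 h with GFP-ERG, and 11.99 and 12.02 at 72 h against 11.69 and 11.72 at 48 h with GFP. ATP5PD, subunit d, read 13.84 and 13.88 at 72 h against 13.69 and 13.57 at 48 h with GFP-ERG, and 13.84 and 13.93 at 72 h against 13.59 and 13.68 at 48 h with GFP. For all 4 genes both arrays at 72 h lay above both at 48 h, with GFP-ERG and with GFP.

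ATP5MG, subunit g, read 13.26 and 13.23 at 72 h against 12.98 and 13.02 at 48 h in GFP-ERG cells, and 13.20 and 13.22 at 72 h against 13.04 and 13.03 at 48 h in GFP cells. ATP5MK, a small subunit of the dimer interface, read 7.55 and 7.60 at 72 h against 7.33 and 7.32 at 48 h with GFP-ERG, and 7.55 and 7.78 at 72 h against 7.45 and 7.45 at 48 h with GFP, near the floor of the scale. ATP5MF read 12.71 and 12.64 at 72 h against 12.53 and 12.57 at 48 h with GFP-ERG, a difference of 0.13 that did not pass, and 12.74 and 12.65 at 72 h against 12.45 and 12.47 at 48 h with GFP, where it did (0.23, limma adjusted p = 0.0106). The catalytic ATP5F1B and ATP5F1A differed by 0.09 to 0.15 with no call in either. ATP5IF1, the inhibitor, stayed at -0.02 and -0.03.

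In complex III 6 of 8 members were higher at 72 h with GFP-ERG, and 4 of 8 higher and 1 lower with GFP. UQCRB read 10.56 and 10.57 at 72 h against 10.26 and 10.09 at 48 h in GFP-ERG cells, and 10.59 and 10.44 at 72 h against 9.95 and 9.97 at 48 h in GFP cells (limma adjusted p = 0.000253 and 5.19e-06). UQCRH read 10.20 and 9.96 at 72 h against 9.96 and 9.50 at 48 h with GFP-ERG, where the times nearly meet at 9.96, and 10.30 and 10.16 at 72 h against 9.39 and 9.67 at 48 h with GFP. Its GFP shift of 0.70 compares with 0.35 with GFP-ERG, and the difference between them did not pass (-0.35 ± 0.16, SE; limma adjusted p = 0.504). UQCR10 read 9.94 and 9.84 at 72 h against 9.55 and 9.54 at 48 h with GFP-ERG and 9.88 and 9.98 at 72 h against 9.71 and 9.64 at 48 h with GFP.

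The core protein UQCRC2 read 10.67 and 10.49 at 72 h against 10.32 and 10.23 at 48 h in GFP-ERG cells, and 10.62 and 10.57 at 72 h against 10.27 and 10.40 at 48 h in GFP cells, and passed in both. Its partner UQCRC1 read 11.78 and 11.81 at 72 h against 11.74 and 11.86 at 48 h with GFP-ERG, and 11.72 and 11.59 at 72 h against 11.81 and 11.89 at 48 h with GFP, where it was lower (-0.19, limma adjusted p = 0.0447). UQCRQ was higher with GFP-ERG, at 14.02 and 13.93 at 72 h against 13.67 and 13.81 at 48 h, and read 13.81 and 13.99 at 72 h against 13.90 and 13.90 at 48 h with GFP. The difference between those shifts did not pass (0.24 ± 0.10, SE; limma adjusted p = 0.452).

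In complex IV 6 of 16 members were higher and 1 lower at 72 h with GFP-ERG, and 5 of 16 higher with GFP. COX7B, a subunit required for assembly of the complex, read 11.77 and 11.91 at 72 h against 11.68 and 11.43 at 48 h in GFP-ERG cells, and 11.74 and 11.83 at 72 h against 11.31 and 11.46 at 48 h in GFP cells (limma adjusted p = 0.0132 and 0.000986). COX7A2 read 13.97 and 13.90 at 72 h against 13.71 and 13.62 at 48 h with GFP-ERG, and 13.99 and 13.87 at 72 h against 13.73 and 13.73 at 48 h with GFP. COX6A1 read 12.12 and 12.10 at 72 h against 11.81 and 11.93 at 48 h with GFP-ERG, and 12.16 and 12.10 at 72 h against 11.80 and 11.94 at 48 h with GFP. These 3 and COX7C passed in both GFP-ERG and GFP cells.

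COX7C read 14.51 and 14.37 at 72 h against 14.19 and 14.20 at 48 h with GFP-ERG, and 14.46 and 14.39 at 72 h against 14.19 and 14.21 at 48 h with GFP. COX6C read 13.31 and 13.40 at 72 h against 13.19 and 13.13 at 48 h with GFP-ERG, and 13.29 and 13.24 at 72 h against 13.09 and 13.26 at 48 h with GFP, where the times overlapped. COX4I1 passed with GFP, at 14.58 and 14.61 at 72 h against 14.42 and 14.40 at 48 h, and not with GFP-ERG, at 14.56 and 14.48 at 72 h against 14.31 and 14.42 at 48 h. The one complex IV member lower with GFP-ERG was the dim muscle isoform COX6A2 (-0.19), which lay below the median probe throughout. Of the 11 members lower in VCaP cells, 9 were called higher at 72 h in GFP-ERG or GFP cells and 4 in both. Among all 43 members these counts were 26 and 16. Of all genes 13.1% were called higher at 72 h with GFP-ERG and 11.8% with GFP.

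Complex II went apart. SDHA read 11.02 and 10.96 at 72 h against 11.36 and 11.42 at 48 h in GFP-ERG cells (1.32-fold lower, log2 fold change -0.40 ± 0.07, SE; limma adjusted p = 0.000329), and 10.91 and 10.67 at 72 h against 11.20 and 11.12 at 48 h in GFP cells (1.29-fold lower, limma adjusted p = 0.000861). It was the only member called lower in both. SDHC read 10.11 and 10.36 at 72 h against 9.73 and 9.84 at 48 h with GFP-ERG (0.45, limma adjusted p = 0.000163), and 10.25 and 10.39 at 72 h against 10.29 and 10.22 at 48 h with GFP (0.07). SDHD was higher with GFP, at 11.10 and 11.23 at 72 h against 10.81 and 10.97 at 48 h, and read 10.97 and 10.90 at 72 h against 10.92 and 10.75 at 48 h with GFP-ERG.

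Most lists of genes that serve the complexes also shifted with time, though not all. Of all genes 13.1% were called higher at 72 h with GFP-ERG and 11.8% with GFP, and 12.6% and 11.2% lower. Of 6 ATP synthase assembly genes 1 was higher in each (16.7%), with medians of 0.03 and 0.07. Of 3 complex II assembly genes 1 was higher with GFP-ERG and 0 with GFP. Of 5 complex III assembly genes 3 were higher in each. None in these lists was lower. Of 22 complex IV assembly genes, 12 were higher at 72 h with GFP-ERG and 8 with GFP, and none lower, led by LRPPRC, which stabilises mitochondrial transcripts (0.71 and 0.65). Of 17 import genes 11 and 8 were higher, with the small chaperone TIMM10 at 0.59 and 0.52 and the receptor TOMM22 at 0.50 and 0.54. Cytochrome c itself, CYCS, was at 0.53 in both, among 4 and 5 of 9 carrier and exchange genes that were higher. Of 14 citrate cycle genes 7 and 6 were higher and 1 lower in each, with IDH3A at 0.59 and 0.47. Of 12 biogenesis regulators 6 were higher and 1 lower in each, among them TFB2M, a factor of mitochondrial transcription (0.47 and 0.49), the coactivator PPARGC1A (0.39 and 0.28) and the ETS factor GABPA (0.24 and 0.40). Complex I had 12 and 11 of 32 members higher, and 1 and 0 lower. Mitochondrial ribosomal proteins had 30 and 27 of 74 higher, and 3 and 2 lower.

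Markers were read over time as well. The basal list of 6 had 3 higher and 1 lower at 72 h with GFP-ERG, and 1 higher and 2 lower with GFP. As a share, this is more than that of all genes called (25.8% and 23.0%). Its median level was 11.89 to 11.94 at 72 h against 12.33 to 12.48 at 48 h, with median changes of 0.07 and 0.01. The basal integrin ITGB4 was lower at 72 h (-1.12 with GFP-ERG, -1.07 with GFP), and the basal keratin KRT5 higher (0.58 and 0.49). The luminal list of 6 had 1 higher with GFP-ERG and 2 with GFP, and none lower. Of 21 markers of other cell types 5 passed with GFP-ERG and 4 with GFP, which as a share is no more than that of all genes called (25.8% and 23.0%). Among them were the lysosomal CD68 of the leukocyte list, lower by over a log2 unit (-1.13 and -1.16), and COL1A1, higher (0.55 and 0.61). The median level of the leukocyte list was 6.80 to 6.94 at 72 h against 6.75 to 6.89 at 48 h, and that of the fibroblast list 6.52 to 6.61 against 6.55 to 6.59, and that of the endothelial list 6.70 to 6.94 against 6.82 to 6.95. The part of these markers in the result was not tested. The labels name no batch within or between the times.

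Across the 37 brighter members, the change in VCaP cells did not line up with the shift over time in RWPE1 cells. Spearman's rho was -0.09 with GFP-ERG and -0.03 with GFP (n = 37 genes, from 4 VCaP arrays and 4 RWPE1 arrays each). UQCRQ, 4.0-fold lower on the arrays labelled ERG shRNA, differed by 0.24 and 0.00 over time, whereas UQCRB, at 0.03 in VCaP cells, differed by 0.39 and 0.55. ATP5MC1 had the largest change of all members in VCaP cells, downward, and the largest with GFP-ERG over time, upward.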

How the data were processed

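Levels were the log2 values that the authors deposited, 1 table for each cell line, and each table was tested alone because the designs of the arrays differ. Per the labels, RNA was extracted with Trizol and labelled with biotin. The software, background correction and normalization were not given in the sources used here. That the deposited values are on a log2 scale was read from their range (5.95 to 15.15 in RWPE1, 7.44 to 15.45 in VCaP), and all fold changes rest on it. Sorted values of an array lay within 0.0391 (RWPE1) and 0.0002 (VCaP) of the mean over arrays, so only relative changes can be seen, and with background left in, folds of dim genes are understated. The number of arrays limits the precision.

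Probes were named from the supplied platform annotation, with 18332 of 20589 (RWPE1) and 21833 of 24525 (VCaP) having 1 symbol, and a gene took its brightest probe. Differences were fitted with limma 3.58.1 in R 4.3.3 (lmFit, contrasts.fit, eBayes), 2-sided, with Benjamini-Hochberg adjustment over all 16591 or 16922 genes and a threshold of 0.05. The scripts were tested on simulated data. The members, the lists of assembly, import and other genes and the markers were chosen with earlier results of these data known. Values on every array are given for at most 5 members per complex and comparison that passed, by size of change, and for the 2 with the smallest change in VCaP. From other lists at most 4 that passed are named, or the 2 largest where none did. ATP5F1A, other probes and genes set beside a group for contrast were named after their values were seen. Alternatives covered the probe choice, dim genes, variance model, background, scaling, array number and each array left out.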

Additional observations from a re-analysis of the deposited data

How the results depend on the processing

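In VCaP cells the median stayed below 0 under every alternative run, from -1.13 (without array 1 labelled ERG shRNA) to -0.48 (without array 2), with -0.57 for the mean of all probes, and the number of members called changed more. Against 11 of 43, it was 17 when dim genes were left out (1 higher) and 23 with a trended, robust variance, each holding all 11. With the array number as a replicate block it was 0. Leaving out 1 array at a time gave 0 to 24, with 0 without scramble array 1 and without scramble array 2.

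The numbers of the arrays are not stated to pair them. Deviations of same-numbered arrays correlated at 0.19 in VCaP cells and at -0.0571 to 0.0776 in RWPE1 cells, and with the replicate block RWPE1 counts were 1 at 48 h and 0 at 72 h for GFP-ERG against GFP, 22 (GFP-ERG) and 19 (GFP) over time, and 0 for the difference.

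Over time the count was 24 with GFP-ERG, 10 with background subtracted and 13 to 23 with arrays left out (13 without GFP-ERG 72 h array 1, 15 without array 2). With GFP it was 22, then 9 with background subtracted and 8 to 23 with arrays left out (8 and 13 without GFP 48 h array 1 or 2, 12 without GFP 72 h array 1). For GFP-ERG against GFP at 48 h it was 1, 0 with background subtracted, 2 without dim genes or with the trended variance, and 1 to 4 with arrays left out. At 72 h it was 0, and 0 to 1 with arrays left out, as for the difference between times. For 58 single calls under 825 alternatives, 657 stayed called in the same direction, 168 missed the threshold and 0 turned. The cause of these changes was not tested.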

Other observations

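Matching symbols outside the 43 members were measured in 1 table each. ATP5F1EP2, a processed copy of the gene for the epsilon subunit of ATP synthase, was 2.48-fold lower on the VCaP arrays labelled ERG shRNA than on the scramble arrays (log2 fold change -1.31 ± 0.09, SE; limma adjusted p = 0.0313). Whether its probe reads the copy or ATP5F1E, which had no probe in that table, was not tested. In RWPE1 cells ATP5F1E shifted by 0.10 with GFP-ERG and 0.12 with GFP at 72 h against 48 h and did not pass. COX7A2L, a relative of COX7A2 that joins complexes III and IV into supercomplexes, was higher at 72 h with GFP-ERG (0.20, limma adjusted p = 0.0336) and at 0.18 with GFP (limma adjusted p = 0.0613).

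Some complex assembly genes passed the test between GFP-ERG and GFP cells at 48 h. UQCC2 was higher with GFP-ERG (0.84, limma adjusted p = 7.18e-09), and COX14 (-0.45), SCO1 (-0.26) and COA7 (-0.22) were lower, with COX11 higher (0.28). The list counts were 1 of 5 complex III assembly genes higher, and 1 higher and 3 lower of 22 complex IV assembly genes, against 8.79% of all genes called. Whether these lists differ from the subunits was not tested.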
